A study of Mus musculus with 13 samples.

Results

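Genes for the degradative enzymes of the lysosome, for proteins of its membrane and for the transcription factors TFEB and TFE3 were followed in mouse quadriceps muscle in which Trp53inp2, whose earlier name is DOR, was ablated or used for a gain of function. The list holds 36 genes, with the proton pump of the lysosome left out, and was taken by gene name; no threshold on these arrays picked its members, though earlier results of these arrays were known when it was drawn up. A probe set is a group of short probes that read the same transcript, and each gene was read by its brightest probe set among those that carry a single gene symbol. Of the 36 genes, 34 had such a probe set, while Neu1 (sialidase) and Cd63 (a membrane tetraspanin) had none in the probe table used here. Of the 34, 30 passed a filter on dim genes and entered the tests, among 10411 tested genes of 17097 measured. The 4 below the filter were Glb1 (beta-galactosidase, mean log2 signal 4.72), Gla (alpha-galactosidase A, 4.48), Arsb (arylsulfatase B, 3.89) and Manba (beta-mannosidase, 3.16), and the tested member nearest to the filter of 4.90 was Gusb (beta-glucuronidase, 5.04).

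The study hybridised 13 arrays, each with RNA from the quadriceps of a separately numbered male C57Bl/6 mouse aged 4 months, fed standard chow, and the question was how loss and gain of DOR alter gene expression in skeletal muscle. The groups were SKM-KO (3 mice, DOR ablation), C (3 mice), SKM-Tg (4 mice, DOR gain of function) and Wt (3 mice). SKM-KO was compared with C and SKM-Tg with Wt, which rests on the names of the groups, since no label states which control goes with which line. The promoter of the transgene, the driver of the ablation and the number of founder lines are not given in the sources used here, so the cells in which DOR was altered are known only as far as the names of the groups go. Values are log2 signals after RMA, a procedure that corrects background, equalises arrays and combines probes, and a difference of 1 on this scale is a doubling.

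Lysosomal hydrolases are made in the endoplasmic reticulum, tagged with mannose 6-phosphate in the Golgi and delivered to an acidic compartment, where peptidases, glycosidases, sulfatases and lipid-cleaving enzymes take apart what endocytosis and autophagy bring in. TFEB and TFE3 are related transcription factors that are held in the cytoplasm when the kinase mTORC1 is active at the lysosome and move to the nucleus in starvation, where they bind a palindrome built on CACGTG in the promoters of many lysosomal genes. Skeletal muscle depends on this system: loss of acid alpha-glucosidase (Gaa) causes Pompe disease and loss of LAMP2 causes Danon disease, both with vacuoles in muscle fibres. TP53INP2, the product of Trp53inp2, takes part in the formation of autophagosomes, which deliver their content to lysosomes.

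Because the list joins TFEB and TFE3 with genes of the kind they bind, the promoters were searched for that palindrome. RefSeq promoter windows (assembly GRCm38.p6, 250 bases before to 50 after the transcript start) were found for 32 of the 36 members, with several starts for some genes. The 6-letter core CACGTG lay in the window of 11 of 32 members (34.4%) and of 12.0% of the 8405 tested genes with a window. The 8-letter form TCACGTGA, which contains the core, lay in 5 of 32 members (15.6%) against 2.32%, and the form with a further G before it and C after it in 1 of 32 (3.12%) against 0.809%. Each of these words reads the same on both strands. The activator protein 1 word TGACTCA, searched on both strands as an unrelated motif, lay in 3 of 32 members (9.38%) against 4.70%. The 32 include members that were not tested on the arrays. Of the 26 tested members with a window, 9 held the core (34.6%), 4 TCACGTGA (15.4%), 1 the longest form (3.85%) and 1 TGACTCA (3.85%). The median GC content of the windows was 56.7% for members and 60.7% for the tested genes. The sites of the 5 members with TCACGTGA, and a core site before Gaa, are printed below on the strand of the gene with the matched letters in capitals; positions count bases from the transcript start.

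Ctsa (chr2:164833749-164833778, plus strand, site at -13): tgagcaaactgTCACGTGAtgcagatgctc

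Ctsa (chr2:164833766-164833795, plus strand, site at 5): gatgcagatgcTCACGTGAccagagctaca

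Ctsd (chr7:142387908-142387937, minus strand, site at -99): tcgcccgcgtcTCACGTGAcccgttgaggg

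Mcoln1 (chr8:3500462-3500491, plus strand, site at -46): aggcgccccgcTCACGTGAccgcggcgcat

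Cln3 (chr7:126583340-126583369, minus strand, site at -123): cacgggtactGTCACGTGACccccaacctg

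Gla (chrX:134601215-134601244, minus strand, site at -228): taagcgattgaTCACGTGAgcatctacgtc

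Gla (chrX:134601182-134601211, minus strand, site at -195): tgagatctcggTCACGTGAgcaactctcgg

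Gaa (chr11:119267811-119267840, plus strand, site at -140): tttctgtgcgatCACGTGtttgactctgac

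Lamp1 has no TCACGTGA in its window but holds 4 core sites within the 62 bases at chr8:13159095-13159156 (plus strand, positions -66 to -5), shown because its sites lie so close together.

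Lamp1: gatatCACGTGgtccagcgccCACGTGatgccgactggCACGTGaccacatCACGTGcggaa

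A match is a description of letters in a window of a reference genome; binding of TFEB or TFE3 was not measured in these muscles. The differences of the genes that carry these words are given with the 2 lines below.

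Trp53inp2 itself, the gene altered in the study, read 11.06, 11.19 and 11.15 in C and 8.58, 8.79 and 8.99 in SKM-KO, so every SKM-KO array lay below every C array. It fell by 2.35 on the log2 scale (SE 0.14), which is 5.08-fold lower (limma, adjusted p = 3.76e-06). In the other line it read 11.20, 11.46 and 11.00 in Wt and 11.11, 11.03, 11.28 and 11.24 in SKM-Tg, a difference of -0.06 (95% interval -0.33 to 0.22, limma adjusted p = 0.886). The arrays therefore showed the loss in SKM-KO and no higher signal in SKM-Tg; whether the probes of this probe set can read a transgene transcript is not given in the sources used here, and every SKM-Tg value below refers to muscles labelled so. The 15 muscle fibre markers all passed the filter and their summed level spanned only 16.03 to 16.24 on the log2 scale over the 13 arrays. Spread differed between groups: the median SD of a tested gene was 0.096 in C, 0.098 in SKM-KO, 0.25 in Wt and 0.17 in SKM-Tg. The array Wt 2 stood apart from the other 12, with an interquartile range of gene deviations of 0.69 against 0.22 to 0.35. It held the highest of the 13 values for 39.3% of tested genes and for 16 of the 30 members. It also held the lowest for 23.8% of tested genes and for 6 members, which were Ctsl, Ctss, Ids, Dnase2a, Lamp2 and Scarb2. Differences against Wt are therefore given without Wt 2 for the members described array by array.

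No member passed the threshold of adjusted p 0.05 in SKM-KO against C or in SKM-Tg against Wt. The direction of the small differences was nearly uniform within each line and opposite between the lines. In SKM-KO, 26 of 30 members lay above C, where 54.0% of all tested genes did; the median difference was 0.09 for members and 0.01 for all genes. In SKM-Tg, 27 of 30 members lay below Wt, where 62.2% of all tested genes did; the medians were -0.18 and -0.05. In SKM-KO no member had an unadjusted limma p under 0.05, a mark that 0.557% of all genes reached. The fit shares 1 spread per gene over all 4 groups, so the errors in SKM-KO also draw on the wider-spread Wt and SKM-Tg arrays. With SKM-KO and C fitted apart from the other groups, again no member had such a p, against 2.74% of all genes. With arrays weighted by their quality 5 members had such a p, against 5.65%. In SKM-Tg 6 of 30 members had one, against 6.89% of all genes: 5 were lower (5.39% of all genes) and 1 higher (1.50%). Single arrays set that count, which was 3 without Wt 2 (5.60% of all genes), 3 without SKM-Tg 1 (3.89%) and 4 without SKM-Tg 2 (4.60%). It was 10 without SKM-Tg 3 (12.3%) and 13 without Wt 3 (30.8%). Adjusted calls over all genes were 0.00961% of 10411 genes in SKM-KO and 0% in SKM-Tg. With arrays weighted by their quality, 10 of 30 members were called in SKM-Tg, where 14.3% of all genes were. All members were read on the same arrays, so these counts are not independent observations. In whole muscle, fewer cells of a type and less RNA per cell cannot be told apart.

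**Figure D1:**
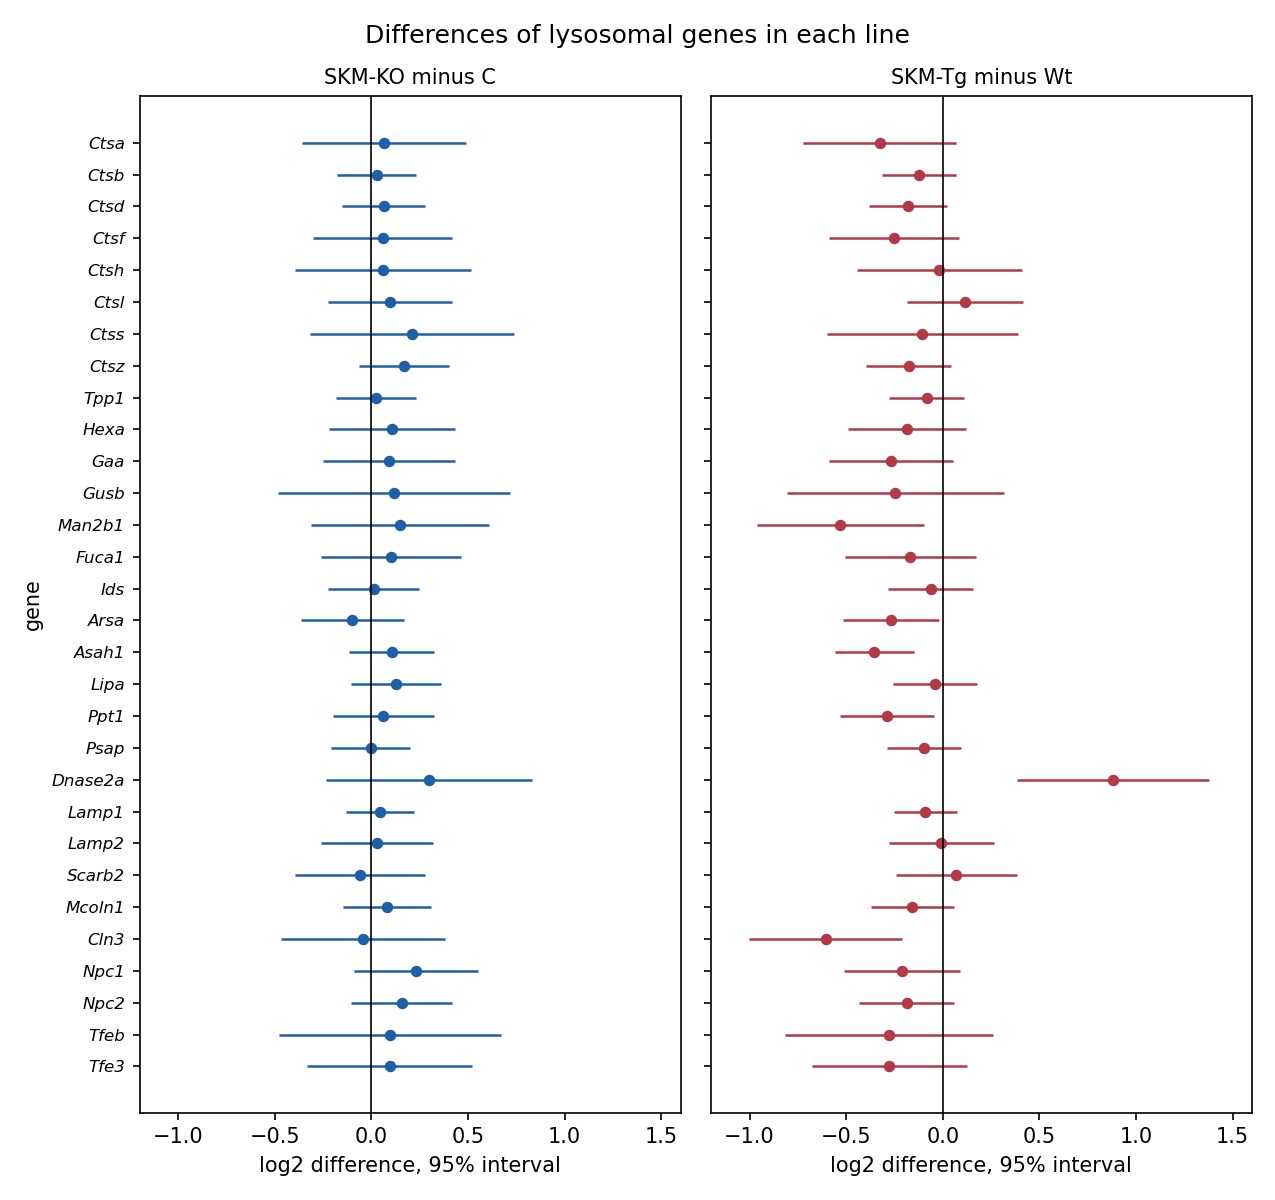
Log2 difference of each tested member with its 95% interval, SKM-KO minus C and SKM-Tg minus Wt, grouped by role. In SKM-KO 26 of 30 points lie above 0 with every interval crossing 0, and in SKM-Tg 27 of 30 lie below 0, the exceptions being Dnase2a, Ctsl and Scarb2.

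The transcription factors were read by a single probe set each. Tfeb read 7.24, 6.76 and 7.11 in C, 7.21, 7.29 and 6.90 in SKM-KO, 7.92, 8.61 and 7.23 in Wt, and 7.52, 7.68, 7.83 and 7.55 in SKM-Tg. SKM-KO and C overlapped, and the SKM-Tg arrays lay inside the wide span of Wt. The difference was 0.10 in SKM-KO (SE 0.26, 95% interval -0.48 to 0.67) and -0.28 in SKM-Tg (SE 0.25, -0.82 to 0.26; limma adjusted p = 0.730), neither larger than the spread of the arrays. Without Wt 2 the SKM-Tg difference of Tfeb turned to 0.07. Tfe3 read 7.15, 7.30 and 7.22 in C, 7.34, 7.35 and 7.26 in SKM-KO, 7.95, 8.55 and 7.56 in Wt, and 7.55, 7.61, 7.95 and 7.87 in SKM-Tg. Both comparisons overlapped, with differences of 0.09 (SE 0.20) and -0.28 (SE 0.18, limma adjusted p = 0.702), the second of which was -0.01 without Wt 2. All 7 arrays of Wt and SKM-Tg lay above all 6 arrays of C and SKM-KO for Tfe3, the only member with that order, and it held for 3.32% of all tested genes; Ids alone lay wholly below in the same way (2.66%). These values are mRNA signals; the location of TFEB and TFE3 in the cell, through which mTORC1 acts on them, is not seen on an array.

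**Figure D2:**
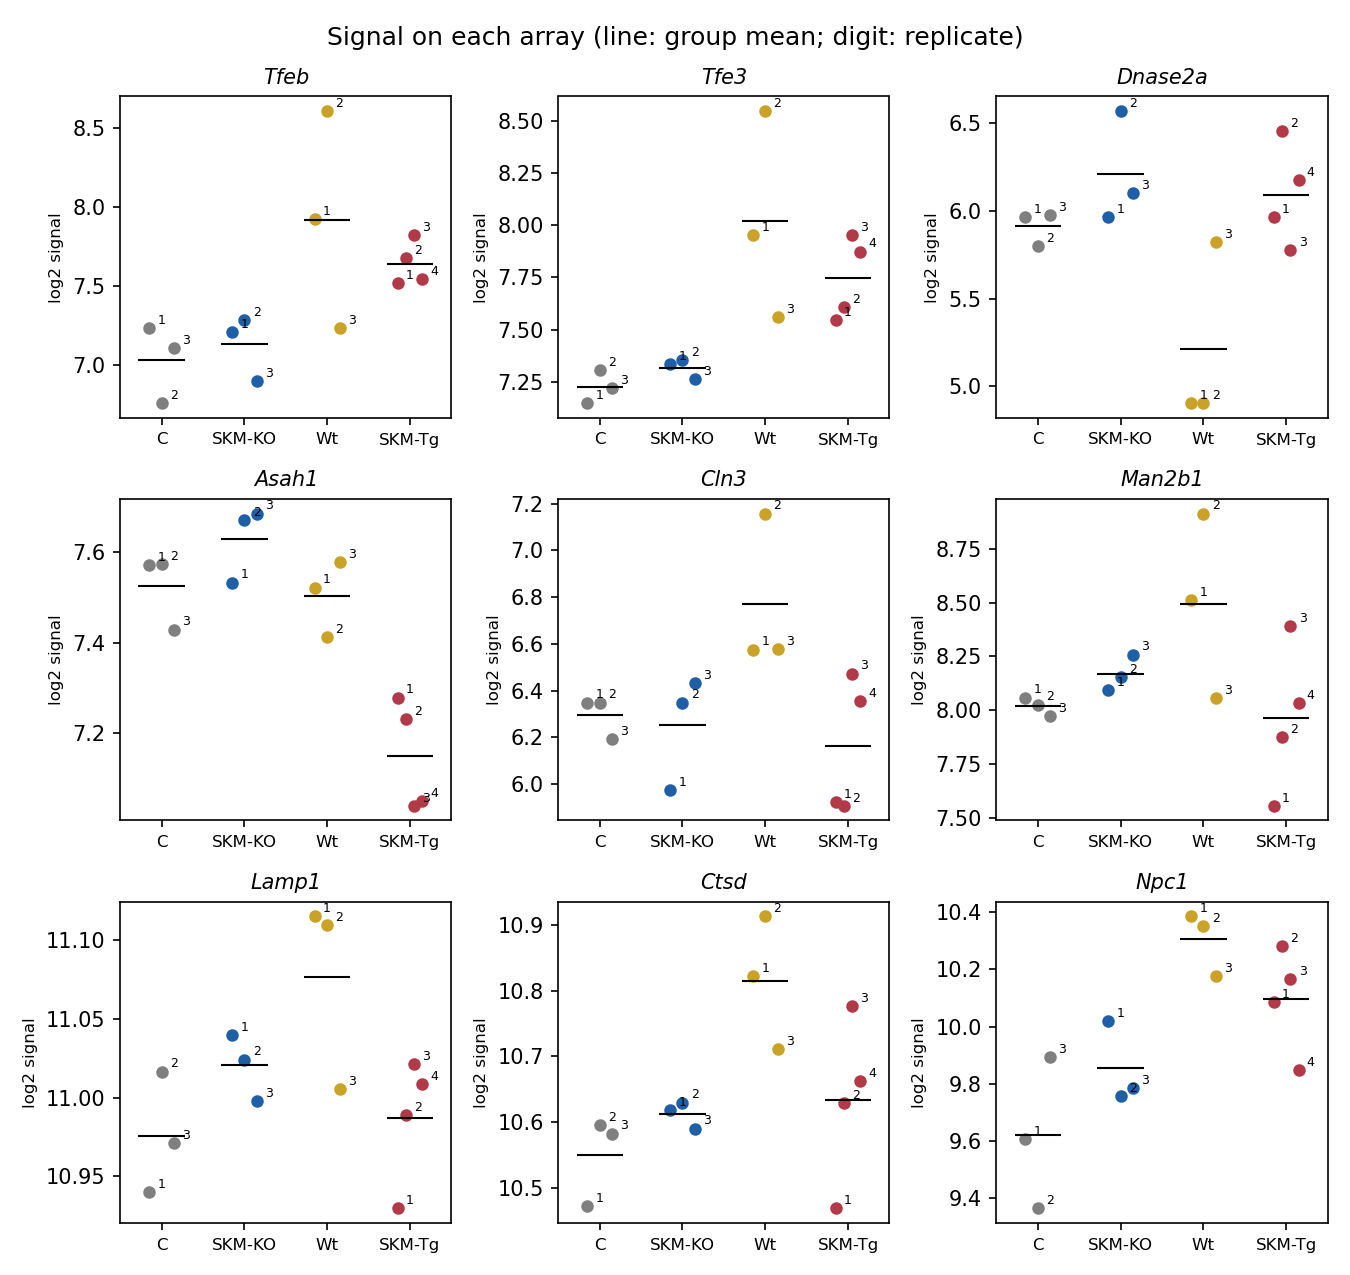
Log2 signal on each of the 13 arrays for 9 of the members described array by array, with the group mean as a line and a vertical scale of its own in each panel. Asah1 and Cln3 in SKM-Tg lie wholly below Wt, and the spread of Wt is the widest of the 4 groups for Tfeb, Tfe3, Dnase2a and Man2b1.

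Among the membrane proteins, 5 of 7 tested members lay above C in SKM-KO (median 0.04) and 6 of 7 below Wt in SKM-Tg (median -0.16). Lamp1, the most abundant glycoprotein of the lysosomal membrane and often used to mark the organelle, read 10.94, 11.02 and 10.97 in C, 11.04, 11.02 and 11.00 in SKM-KO, 11.12, 11.11 and 11.01 in Wt, and 10.93, 10.99, 11.02 and 11.01 in SKM-Tg. Its 13 values were close together and its groups overlapped in both lines. The differences were 0.04 (95% interval -0.13 to 0.22) and -0.09 (-0.25 to 0.07), the narrowest intervals among the members named here, and without Wt 2 the second was -0.07. Lamp2, needed for fusion of autophagosomes with lysosomes, read 8.78, 9.08 and 8.91 in C, 8.85, 8.94 and 9.07 in SKM-KO, 8.57, 8.37 and 8.88 in Wt, and 8.67, 8.69, 8.48 and 8.55 in SKM-Tg. Groups overlapped here too, with differences of 0.03 (SE 0.13) and -0.01 (SE 0.13), or -0.13 without Wt 2. Its other probe sets gave 0.07 and 0.25 in SKM-Tg, so the sign for Lamp2 in that line depended on the probe set, and so did that of Scarb2, the receptor that carries glucocerebrosidase, with 0.07 by its brightest probe set (-0.13 without Wt 2) and -0.18 by the other.

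Cln3, a membrane protein lost in juvenile Batten disease, showed one of the clearest separations. It read 6.58, 7.16 and 6.58 in Wt and 5.92, 5.91, 6.47 and 6.36 in SKM-Tg, against 6.35, 6.35 and 6.19 in C and 5.97, 6.35 and 6.43 in SKM-KO. All 4 SKM-Tg arrays lay below all 3 Wt arrays, while SKM-KO and C overlapped. By the brightest probe sets, Cln3 was one of 3 members without overlap in that direction, with Ctsz and Asah1, where 2.79% of all tested genes were. No member lay wholly above Wt (1.18%). The means were 6.77 ± 0.34 (SD, n = 3) in Wt and 6.16 ± 0.29 (SD, n = 4) in SKM-Tg, 1.52-fold lower (log2 difference -0.61, SE 0.18, unadjusted p = 0.00588, limma adjusted p = 0.691), and the SKM-KO difference was -0.05. Without Wt 2 the difference was -0.41. A second Cln3 probe set, whose mean of 3.59 lies below the filter, gave -0.08.

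The cholesterol exporters showed opposite signs in the lines. Npc1, the membrane protein that passes cholesterol out of the lysosome, read 9.61, 9.36 and 9.89 in C, 10.02, 9.76 and 9.79 in SKM-KO, 10.39, 10.35 and 10.18 in Wt, and 10.09, 10.28, 10.16 and 9.85 in SKM-Tg. SKM-KO and C overlapped, and so did SKM-Tg and Wt. Npc1 had the smallest p of the 30 members in SKM-KO, with a difference of 0.23 (SE 0.15, 95% interval -0.09 to 0.55, unadjusted p = 0.142, limma adjusted p = 0.99997), and it differed by -0.21 in SKM-Tg (SE 0.14), or -0.19 without Wt 2. Npc2, the soluble protein that hands cholesterol to NPC1, read 9.36, 9.57 and 9.48 in C, 9.53, 9.69 and 9.67 in SKM-KO, 9.65, 9.86 and 9.57 in Wt, and 9.30, 9.60, 9.69 and 9.45 in SKM-Tg. Its groups overlapped in both lines, with differences of 0.16 (SE 0.12) and -0.19 (SE 0.11), the second being -0.10 without Wt 2. Mcoln1, the calcium channel of the lysosomal membrane, differed by 0.08 and -0.16 without reaching an unadjusted p of 0.05.

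The peptidases lay above C in SKM-KO for all 9 members, with a median of only 0.06, and below Wt in SKM-Tg for 8 of 9, with a median of -0.12. Ctsd, the main aspartic protease, read 10.47, 10.60 and 10.58 in C, 10.62, 10.63 and 10.59 in SKM-KO, 10.82, 10.91 and 10.71 in Wt, and 10.47, 10.63, 10.78 and 10.66 in SKM-Tg. SKM-Tg 1, SKM-Tg 2 and SKM-Tg 4 lay below every Wt array, and SKM-Tg 3 lay within their range. The differences were 0.06 (SE 0.10) and -0.18 (SE 0.09, 95% interval -0.38 to 0.02), the second being -0.13 without Wt 2. Ctsz, a cysteine carboxypeptidase also known as cathepsin X, read 9.09, 9.18 and 9.09 in C, 9.15, 9.44 and 9.29 in SKM-KO, 9.34, 9.31 and 9.27 in Wt, and 8.94, 9.08, 9.25 and 9.24 in SKM-Tg. Every SKM-Tg array lay below every Wt array, and SKM-KO overlapped C through a single array. The differences were 0.17 (SE 0.11, unadjusted p = 0.145) and -0.18 (SE 0.10, limma adjusted p = 0.702; -0.17 without Wt 2), and its 3 probe sets gave SKM-KO differences of 0.17, 0.27 and 0.15; the brightest carries the suffix _s_at, which marks probes shared by several transcripts.

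Ctss stood lower in Wt and SKM-Tg than in C and SKM-KO. It encodes an endopeptidase of antigen-presenting cells and had a mean of 6.87 ± 0.31 (SD, n = 3) in C and 7.08 ± 0.21 (n = 3) in SKM-KO, against 6.03 ± 0.53 (n = 3) in Wt and 5.93 ± 0.24 (n = 4) in SKM-Tg. Its differences were 0.21 and -0.11, both within their error. Ctsl, the cysteine protease that rises in wasting muscle, was the only peptidase above Wt in SKM-Tg (0.11, SE 0.14; -0.01 without Wt 2), and its second probe set gave 0.42 there and -0.11 in SKM-KO. For Ctsa, the carboxypeptidase that also shields beta-galactosidase and sialidase, the SKM-Tg difference was -0.33 (SE 0.18, 95% interval -0.72 to 0.07), and -0.08 without Wt 2. Ctsb, Ctsf, Ctsh and Tpp1 lay between -0.25 and -0.02 in SKM-Tg and between 0.02 and 0.06 in SKM-KO.

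All 5 tested glycosidases lay above C in SKM-KO (median 0.11) and below Wt in SKM-Tg (median -0.25). Man2b1, the alpha-mannosidase that trims glycoproteins, read 8.06, 8.03 and 7.97 in C, 8.09, 8.16 and 8.26 in SKM-KO, 8.51, 8.91 and 8.05 in Wt, and 7.56, 7.88, 8.39 and 8.03 in SKM-Tg. All SKM-KO arrays lay above all C arrays, as they did for Fuca1 (alpha-fucosidase) and Lipa (acid lipase) and for 4.66% of tested genes; no member lay wholly below C (2.83% of tested genes). SKM-Tg and Wt overlapped in Man2b1 through Wt 3 and SKM-Tg 3. The SKM-KO difference was 0.15, with an SE of 0.21 from the spread shared by all 4 groups. The SD was 0.04 in C and 0.08 in SKM-KO. The SKM-Tg difference was -0.53 (SE 0.20), 1.44-fold lower (unadjusted p = 0.0198, limma adjusted p = 0.702), and it was -0.32 without Wt 2. Gaa, which breaks down glycogen in the lysosome, had means of 9.96 ± 0.10 (SD, n = 3) in C, 10.05 ± 0.04 (n = 3) in SKM-KO, 10.59 ± 0.30 (n = 3) in Wt and 10.32 ± 0.23 (n = 4) in SKM-Tg. Its differences were 0.09 (SE 0.16) and -0.27 (SE 0.15, 95% interval -0.59 to 0.05), the second being -0.12 without Wt 2. Hexa, the alpha subunit of beta-hexosaminidase, differed by 0.11 and -0.18, Gusb by 0.12 and -0.25, and Fuca1 by 0.10 and -0.17, all with intervals across 0.

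Of the sulfatases, Arsa and Ids could be tested. Arsa, which removes sulfate from sulfatide, read 5.91, 5.92 and 5.91 in C, 5.74, 5.91 and 5.79 in SKM-KO, 5.99, 6.22 and 5.91 in Wt, and 5.60, 5.60, 5.96 and 5.91 in SKM-Tg. SKM-Tg and Wt overlapped. Arsa differed by -0.10 in SKM-KO (SE 0.12) and by -0.27 in SKM-Tg (SE 0.12, unadjusted p = 0.0367, limma adjusted p = 0.702), or -0.18 without Wt 2. Ids, which starts the breakdown of dermatan and heparan sulfate, differed by 0.01 and -0.06, and the sign differed among its probe sets in both lines.

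The lipid-cleaving enzymes held the most even separation between SKM-Tg and Wt. Asah1, the acid ceramidase that splits ceramide into sphingosine and a fatty acid, read 7.57, 7.57 and 7.43 in C, 7.53, 7.67 and 7.69 in SKM-KO, 7.52, 7.41 and 7.58 in Wt, and 7.28, 7.23, 7.04 and 7.05 in SKM-Tg. The 4 SKM-Tg arrays were the lowest of all 13, below every Wt, C and SKM-KO array. The means were 7.50 ± 0.08 (SD, n = 3) in Wt and 7.15 ± 0.12 (SD, n = 4) in SKM-Tg, 1.28-fold lower (log2 difference -0.35, SE 0.09, 95% interval -0.56 to -0.15, unadjusted p = 0.00266, limma adjusted p = 0.594). The difference was -0.40 without Wt 2, and in SKM-KO it was 0.10 (SE 0.10). Asah1 is read by a single probe set and has no promoter window in the table used.

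Ppt1, which removes palmitate from proteins, read 6.80, 6.95 and 6.83 in C, 6.79, 6.95 and 7.04 in SKM-KO, 6.88, 7.13 and 6.83 in Wt, and 6.47, 6.61, 6.83 and 6.72 in SKM-Tg. Only the highest SKM-Tg array reached the lowest Wt array. The SKM-Tg difference was -0.29 (SE 0.11, unadjusted p = 0.0242, limma adjusted p = 0.702), or -0.20 without Wt 2, and other Ppt1 probe sets gave -0.14 and -0.08. Lipa, which releases fatty acids from cholesteryl esters and triglycerides taken into the lysosome, differed by 0.13 in SKM-KO and -0.04 in SKM-Tg. Psap, the precursor of the saposins that present lipids to hydrolases, differed by less than its error in SKM-KO and by -0.09 in SKM-Tg.

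Dnase2a, the lysosomal nuclease that digests DNA of engulfed cells, was higher in SKM-Tg, with Ctsl and Scarb2 at smaller differences of that sign. It read 5.96, 5.80 and 5.98 in C, 5.96, 6.57 and 6.10 in SKM-KO, 4.91, 4.90 and 5.82 in Wt, and 5.96, 6.45, 5.77 and 6.17 in SKM-Tg. Wt 1 and Wt 2 were the 2 lowest arrays of the 13, and Wt 3 lay with the other groups, above SKM-Tg 3. The means were 5.21 ± 0.53 (SD, n = 3) in Wt and 6.09 ± 0.29 (SD, n = 4) in SKM-Tg, 1.84-fold higher (log2 difference 0.88, SE 0.23, 95% interval 0.38 to 1.38, unadjusted p = 0.00219, limma adjusted p = 0.584). The difference was 0.73 without Wt 2. Wt 3 decided the call: without it the difference was 1.19 (limma adjusted p = 0.0257) and 0.288% of all genes were called. In SKM-KO the difference was 0.30 (SE 0.25). Its only probe set carries the suffix _x_at, which marks probes that can also bind other transcripts.

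**Figure D3:**
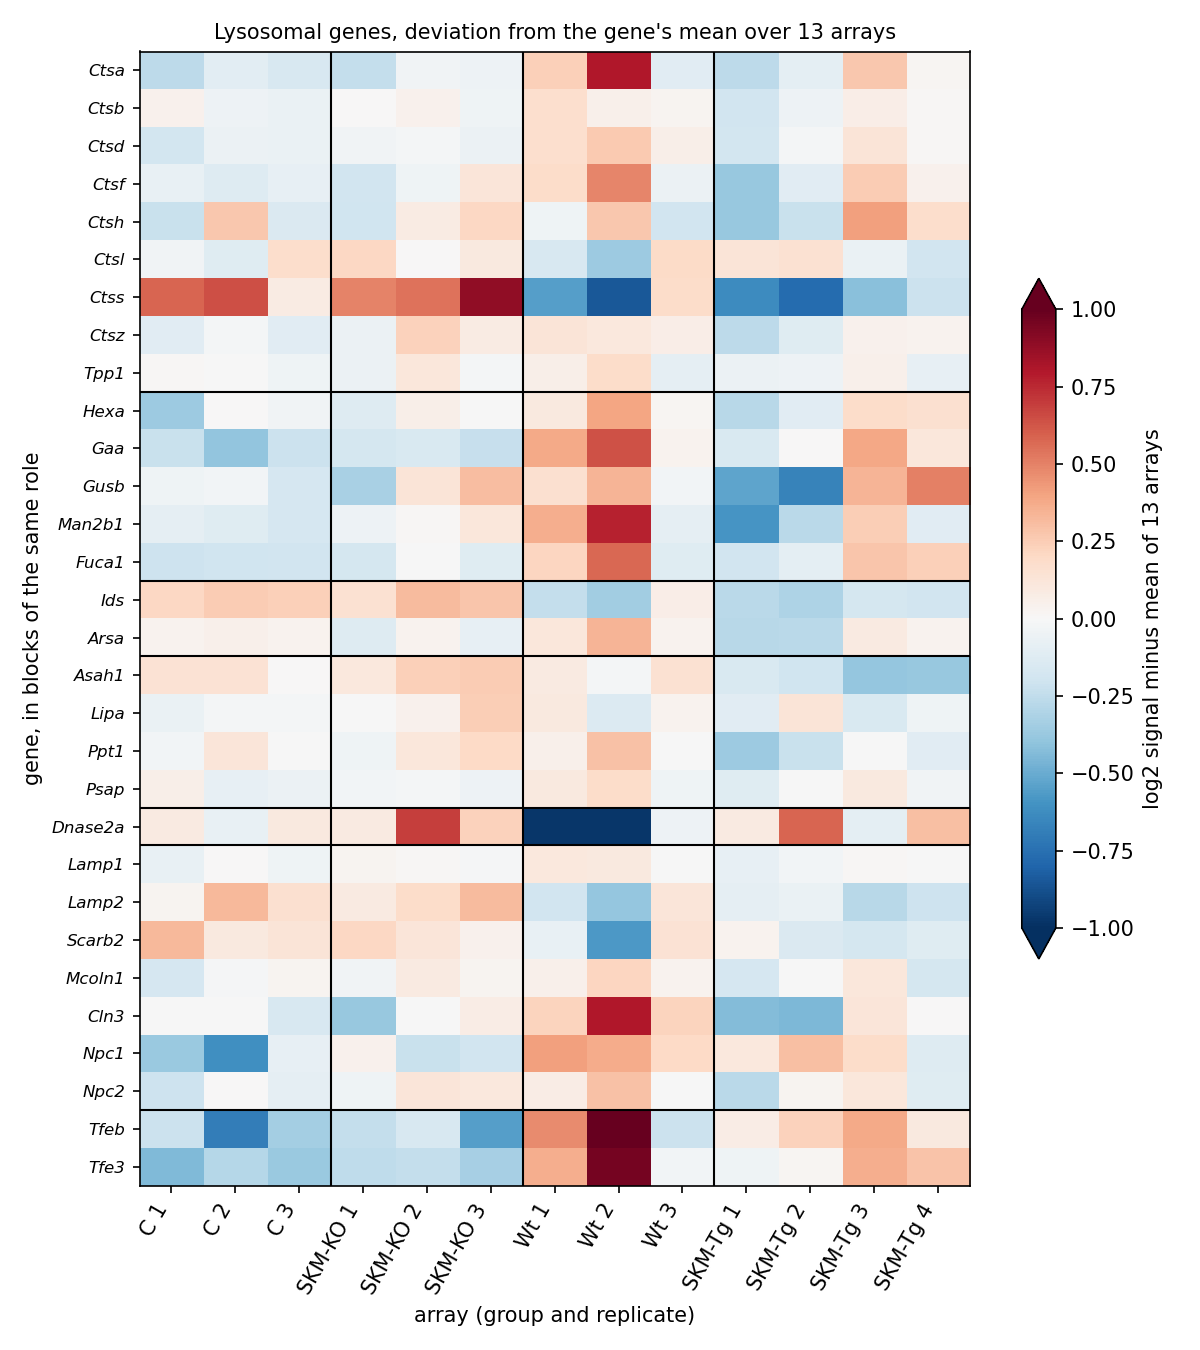
Log2 signal of each tested member on each of the 13 arrays, as the difference from the member's mean over all arrays, with members grouped by role. The columns of Wt 2 and SKM-Tg 1 differ most from their neighbours. Of the 30 tested members, Wt 2 is highest for 16 and lowest for 6, and SKM-Tg 1 is lowest for 11.

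The 2 comparisons share no array, so the pairs of differences can be set beside each other. Of 30 members, 24 (80.0%) had a positive difference in SKM-KO and a negative one in SKM-Tg, where 34.3% of all tested genes did; without Wt 2 it was 22 (73.3%) against 34.9%. By the brightest probe sets, Scarb2 had the reverse pair of signs, Ctsl and Dnase2a were positive in both lines, and Arsa, Psap and Cln3 were negative in both. The other Scarb2 probe set gave 0.18 in SKM-KO and -0.18 in SKM-Tg, the pair of most members, and the second Ctsl probe set gave -0.11 and 0.42. Of 12 members with several probe sets past the filter, the sign differed among them for 4 in SKM-KO and 3 in SKM-Tg. The difference between the effects, that is SKM-Tg minus Wt less SKM-KO minus C, was negative for 27 of 30 members, with a median of -0.28 against -0.06 for all genes, of which 61.7% were negative. No member passed the adjusted threshold in this test, which 0.0192% of all genes did. At an unadjusted limma p under 0.05, 4 members were lower, where 2.36% of all genes were. They were Asah1 (-0.46, SE 0.14), Man2b1 (-0.68, SE 0.29), Ctsz (-0.34, SE 0.15) and Npc1 (-0.44, SE 0.20), each with a limma adjusted p of 0.989. Counted in either direction, there were 4 members, against 3.10% of all genes. The count in either direction was 1 without C 1 (2.03% of all genes), SKM-KO 3 (1.92%) or SKM-Tg 1 (2.18%). It was 2 without Wt 2 (3.58%), C 3 (2.06%), Wt 1 (2.78%) or SKM-Tg 2 (2.31%). It was 8 without SKM-Tg 3 (5.60%) and 13 without Wt 3 (15.1%). Other probe sets of the same gene set aside, Asah1 kept its unadjusted mark in all 21 alternatives run, Man2b1 in 11, Ctsz in 10 and Npc1 in 9. With arrays weighted by their quality, 4 members were called, where 2.22% of all genes were. Without Wt 2 the median of the members was -0.17.

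**Figure D4:**
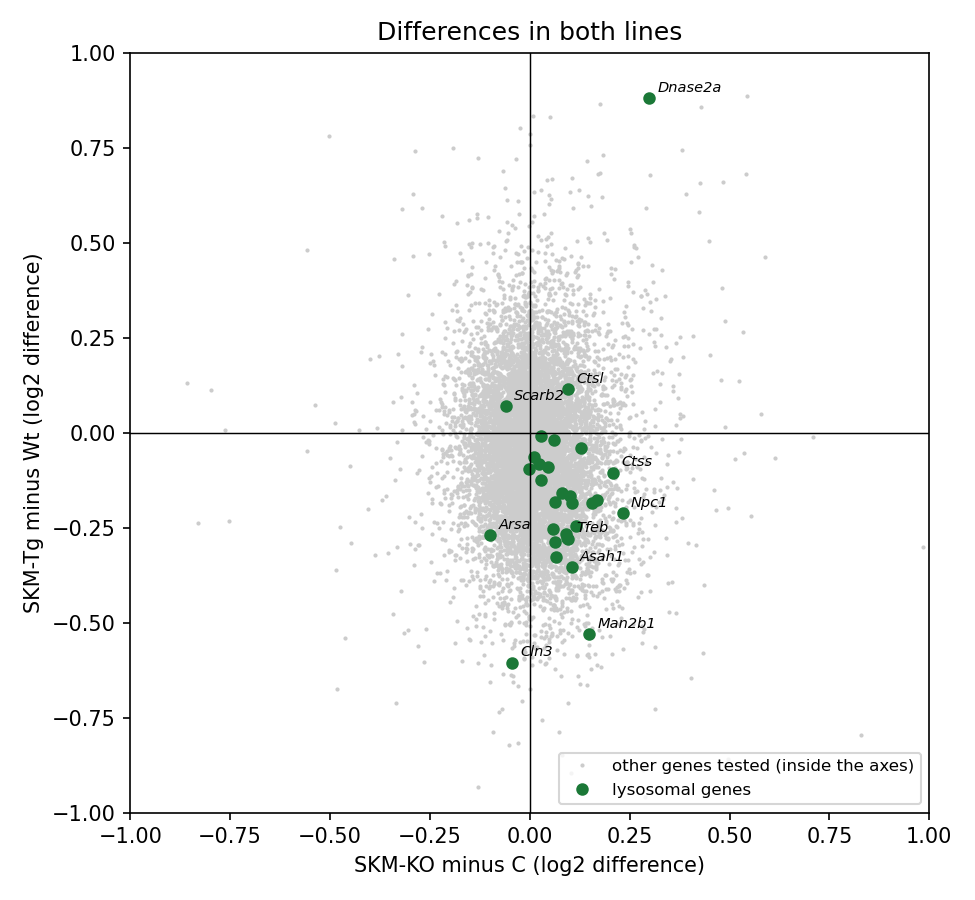
Each tested member's log2 difference in SKM-KO against C (horizontal axis) and in SKM-Tg against Wt (vertical axis), in green over the other tested genes in grey. Of the 30 members, 24 lie in the quadrant that is positive in SKM-KO and negative in SKM-Tg. Dnase2a, positive in both lines, is the highest of the 30 at 0.88 on the vertical axis.

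Members with and without the CACGTG core in their promoter window were set side by side. The 9 tested members with the core had a median difference of 0.06 in SKM-KO (7 positive) and -0.25 in SKM-Tg (8 negative). The 17 without it had medians of 0.10 (15 positive) and -0.17 (15 negative). Among the genes printed above, Ctsd, Mcoln1, Cln3, Gaa and Lamp1 had SKM-Tg differences from -0.61 to -0.09, and Man2b1 and Ppt1, which lack the core in their windows, lay in the same range at -0.53 and -0.29.

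The lower member values in SKM-Tg were not even over its mice. Against the Wt mean of each gene, the median member stood at -0.36 on SKM-Tg 1, -0.23 on SKM-Tg 2, -0.02 on SKM-Tg 3 and -0.12 on SKM-Tg 4, with 26, 25, 19 and 24 of 30 members below. The Wt arrays themselves stood at -0.01, 0.12 and -0.12, so SKM-Tg 3 and SKM-Tg 4 lay within or at the edge of the control range and SKM-Tg 1 and SKM-Tg 2 below it. The median of all genes stood between -0.08 and 0.01 on the SKM-Tg arrays. Against the C mean, the median member stood at 0.02, 0.12 and 0.12 on the SKM-KO arrays, with 20, 27 and 24 members above, and at -0.01, 0.03 and 0.00 on the C arrays. Each Wt or C array is part of the mean it is set against, which draws its value towards 0, while SKM-Tg and SKM-KO arrays are not. The control values therefore understate how far a further control array could lie. Without SKM-Tg 1 the median difference of the members in SKM-Tg was -0.11, and without Wt 2 it was -0.12 with 26 of 30 negative (Tfeb, Fuca1, Ctsh and Dnase2a positive), when that of all genes was -0.03 with 58.9% negative.

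**Figure D5:**
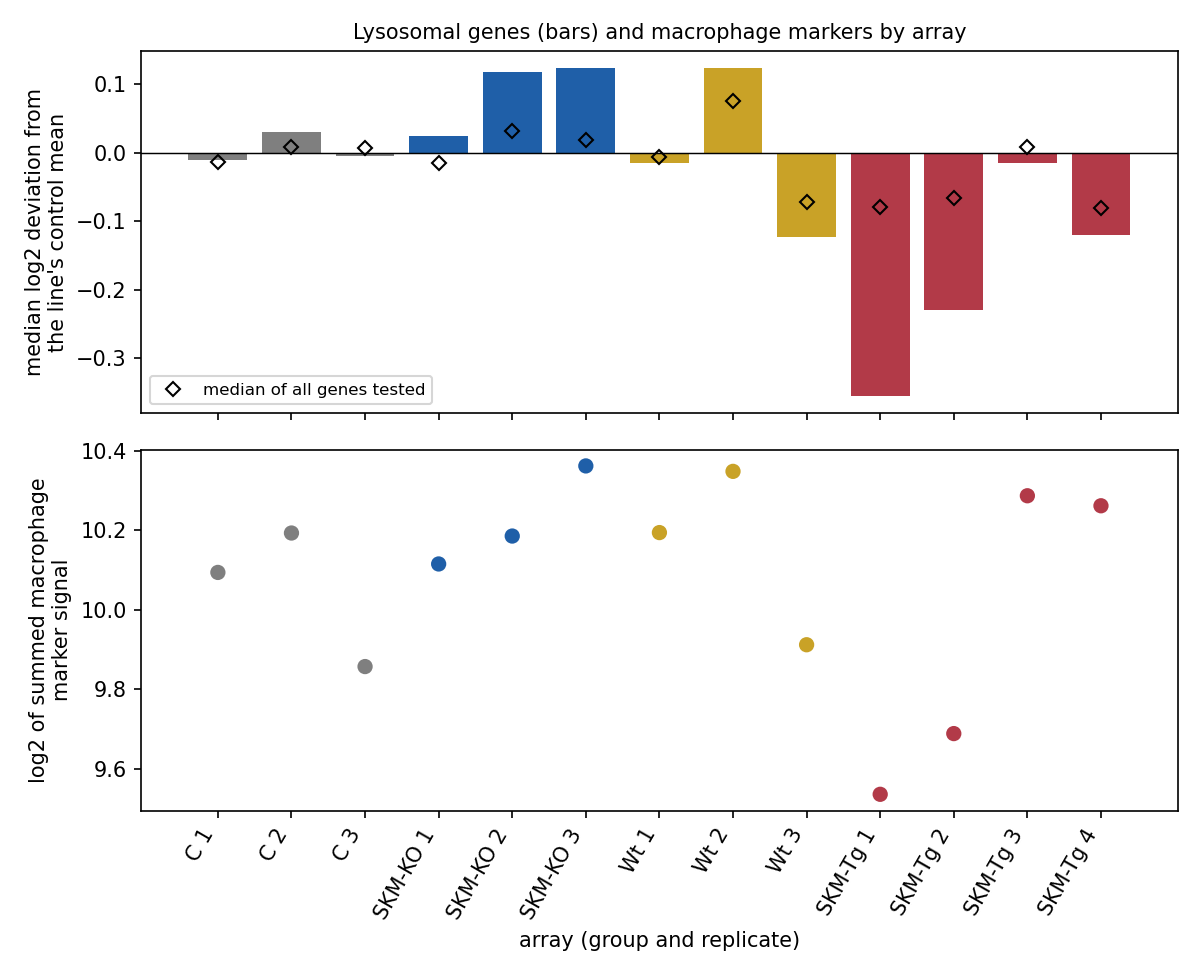
Median log2 difference of the 30 tested members from the mean of their control group, for each array, beside the median of all tested genes. SKM-Tg 1 and SKM-Tg 2 stand lowest at -0.36 and -0.23, SKM-KO 2 and SKM-KO 3 at 0.12, and the all-gene medians stay between -0.08 and 0.01 on the SKM-Tg arrays.

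Macrophage markers had differences of the same signs as the members. Lysosomal hydrolases are abundant in macrophages, and of 14 markers 11 passed the filter, with Adgre1, Aif1 and Cd14 below it. All 11 had positive differences in SKM-KO (median 0.20) and 10 of 11 negative ones in SKM-Tg (median -0.25). Their summed log2 level ranged from 9.86 to 10.19 in C, 10.12 to 10.36 in SKM-KO, 9.91 to 10.35 in Wt and 9.54 to 10.29 in SKM-Tg, lowest on SKM-Tg 1 (9.54) and SKM-Tg 2 (9.69), which were also the arrays with the lowest members. Fibroblast and matrix markers, of which 7 of 10 passed the filter, had median differences of 0.14 and -0.23, with summed levels of 11.99 to 12.33 in C, 12.13 to 12.51 in SKM-KO, 11.90 to 12.47 in Wt and 11.69 to 12.23 in SKM-Tg. The part of macrophage and fibroblast RNA in the members' differences was not tested. These lists did not stand alone. In SKM-Tg, markers were lower for 8 of 10 of endothelium (median -0.19), 5 of 6 of smooth muscle and pericytes (-0.12), both tested ones of satellite cells (-0.33) and 3 of 3 of red blood cells (-0.28), and 14 of 15 of muscle fibres (-0.07). Of all tested genes 62.2% lay below Wt there, with a median of -0.05, which is near that of the muscle fibre markers. In SKM-KO, nerve and Schwann cell markers were higher for 4 of 4 (median 0.33) and liver markers lower for 6 of 6 (-0.78), while endothelium (-0.03) and muscle fibre (0.02) stood near 0. Of all tested genes 54.0% lay above C there (median 0.01). The summed liver level read 8.71, 9.74 and 7.90 on the C arrays and 7.84, 7.53 and 7.53 on the SKM-KO arrays. C 1 and C 2 thus stood highest, and Wt spanned 7.54 to 8.58. The part of these further cell types in the members' differences was not tested either.

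The control groups also differed from each other. Of 30 members, 23 lay above C in Wt, where 58.8% of all genes did, and the median difference was 0.14. In Wt against C, 14 of 30 members (46.7%) had an unadjusted limma p under 0.05, against 27.8% of all genes: 9 were higher (16.2% of all genes) and 5 lower (11.6%). The count was 6 without Wt 2 (9.37% of all genes), 8 without C 1 (19.6%) or C 3 (17.2%) and 16 without Wt 3 (50.4%). None passed the adjusted threshold, which 0.00961% of all genes did; the lowest adjusted p of a member was 0.144. Wt lay wholly above C for 10 members (15.4% of all genes) and wholly below it for 1, Ids (8.51%). Npc1 differed by 0.68 (SE 0.15), Tfeb by 0.89 (SE 0.26), Tfe3 by 0.80 (SE 0.20) and Gaa by 0.63 (SE 0.16), while Ctss differed by -0.84 (SE 0.24), Dnase2a by -0.70 (SE 0.25) and Ids by -0.41 (SE 0.11). For Ids the other 3 probe sets past the filter gave 0.15, 0.09 and 0.03, so its order between the control groups held for the brightest probe set alone. This comparison uses the same Wt and C arrays as those above, so it is no separate evidence on either line. Wt 3 decided its count: without it 13 members and 39.6% of all genes were called. With arrays weighted by their quality, 20 members and 55.6% of all genes were.

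Other genes of the lysosome, taken from lists by function, gave 96 tested of 127 listed, none called in either line. Their signs stand beside all tested genes, of which 54.0% were positive in SKM-KO and 62.2% negative in SKM-Tg. Of 27 tested other hydrolases and cofactors, 22 had positive differences in SKM-KO (median 0.06) and 20 negative ones in SKM-Tg (median -0.18); the lowest p there were for Pla2g15 (lysosomal phospholipase, -0.39), Lgmn (legumain, an asparaginyl endopeptidase, -0.51) and Scpep1 (a serine carboxypeptidase, -0.43). Among 26 other membrane proteins, 21 were positive in SKM-KO (median 0.07) and 22 negative in SKM-Tg (median -0.16), including Slc15a4, a histidine and peptide carrier (-0.39), and Laptm4b (-0.39). Of 22 genes for delivery of hydrolases from the Golgi, 15 were positive in SKM-KO (median 0.04) and 16 negative in SKM-Tg (median -0.11), with Gga3, an adaptor for mannose 6-phosphate receptors, at -0.35. The 21 genes for control of TFEB and TFE3 by mTORC1 and the Rag GTPases had 14 positive in SKM-KO (median 0.05) and 10 negative in SKM-Tg (median 0.02), with Mtor at -0.31 and Rptor at -0.34 in SKM-Tg. Every one of these named differences had a limma adjusted p above the threshold, and all of them include Wt 2. That array was the highest of Wt for each of these genes except Scpep1. On Wt 1, Wt 2 and Wt 3, Lgmn read 5.93, 6.66 and 5.70, Mtor 8.92, 9.39 and 8.63, and Rptor 8.06, 8.57 and 7.63.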

How the data were processed

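Quadriceps RNA (25 ng of total RNA per mouse) was amplified isothermally and hybridised to Affymetrix 430PM strip arrays, per the labels' protocols. The deposited log2 values were made by the authors with RMA, per the submitters' processing notes; its settings and any scan batch are not given in the sources used here. The table held 45141 probe sets with values from 2.14 to 13.21. Of the 45037 that are not controls, 28898 have 1 gene symbol in the platform annotation, 551 several and 15588 none. Each gene was read by its brightest single-symbol probe set and tested where its mean exceeded 4.90, the median of all non-control probe set means. limma 3.58.1 (R 4.3.3) was fitted to all 13 arrays with 1 mean per group, and its two-sided p received the Benjamini-Hochberg adjustment over 10411 genes, with a threshold of 0.05; the code was tested on simulated data. Values on every array are given for Tfeb, Tfe3, Lamp1, Lamp2, Ctsd, members with an unadjusted p under 0.05 and the 4 smallest p in each of SKM-KO, SKM-Tg and the difference of effects. The members and lists were chosen with earlier results of these data known. With 3 or 4 arrays a group, the number of arrays limits the precision. Alternatives covered normalization, filter, probe set choice, variance model, array weights, separate fits and each array left out.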

Additional observations from a re-analysis of the deposited data

Results flagged for a closer look

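In a group of 4 arrays, an array was marked where its gap to the nearest other was larger than Dixon's critical share of the group's range, and the 34 measured members gave 34 such SKM-Tg groups. This marked 2 of 34 (5.88%), and chance marks about 1 in 20. For Manba, SKM-Tg 1 read 2.94 where the other 3 read 3.15 to 3.16, a gap of 0.938 of the range. For Arsb, SKM-Tg 1 read 4.03 where the others read 3.80 to 3.84, a gap of 0.838. Both genes lie below the filter on dim genes.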

How the results depend on the processing

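No paired analysis was possible because the groups share no replicate numbers in the labels, where every array has an animal number of its own. The median difference of the members kept its sign under the alternatives run; leaving out each array gave 0.05 to 0.12 in SKM-KO, -0.24 to -0.11 in SKM-Tg, -0.34 to -0.17 for the difference of effects and 0.11 to 0.19 for Wt against C. The named members had adjusted p far above 0.05, so staying above it says nothing about stability; 10 of 309 alternative values newly passed it and none reversed. Other probe sets of the same gene set aside, the unadjusted mark in SKM-Tg held in all alternatives run for Asah1, Cln3 and Dnase2a. It held in 19 of 22 for Man2b1, 18 of 22 for Ppt1 and 13 of 21 for Arsa. The second Cln3 probe set and the other Ppt1 probe sets did not reach it. The normalization changed the background: in SKM-Tg, cyclic loess left 23 of 30 members negative (median -0.13) with 50.9% of all genes negative, and quantile normalization 24 (median -0.12) with 53.7%. Array quality weights, which gave Wt 1 a weight of 7.21 and Wt 2 one of 0.147, called 1492 genes and 10 members in SKM-Tg, 231 genes and 4 members for the difference of effects, and 5787 genes and 20 members in Wt against C, among them Dnase2a (1.30) and Asah1 (-0.33) in SKM-Tg; the cause was not tested. In SKM-KO, the mean of all probe sets called 2 genes in place of 1. For the difference of effects, setting array medians equal and the filter at the 75th percentile each called 1 gene in place of 2. For Wt against C, quantile normalization, cyclic loess, no filter and separate fits called 0 genes, and the mean of all probe sets 2, in place of 1. Leaving out each array gave 0 to 30 called genes and 0 to 1 called members in SKM-Tg, 1 to 2 genes for the difference of effects, and 0 to 4119 genes and 0 to 13 members in Wt against C, the high ends without Wt 3.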

Other observations

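Fat cell markers, of which 5 passed the filter, had positive differences in SKM-Tg for 5 of 5 (median 0.86) and in SKM-KO for 4 of 5 (median 0.43). Adipoq, the fat cell hormone adiponectin, read 6.31, 8.75 and 5.12 in Wt and 7.66, 9.84, 8.12 and 8.52 in SKM-Tg, so the groups overlapped through Wt 2. In SKM-KO Adipoq read 4.75, 8.20 and 4.49, against 5.56, 4.80 and 5.34 in C, so its higher mean there rested on SKM-KO 2. The summed level of the fat cell markers differed by 0.05 in SKM-KO and by 0.20 in SKM-Tg. The median of the fat cell markers ran against that of the members in SKM-Tg.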
